A study of Mus musculus with 23 samples.

Results

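The 10 genes described here encode the brakes of the mammalian cell cycle: the Cip/Kip inhibitors Cdkn1a, Cdkn1b and Cdkn1c, the Ink4 inhibitors Cdkn2a, Cdkn2b, Cdkn2c and Cdkn2d, and the pocket proteins Rb1, Rbl1 and Rbl2. They were chosen by symbol, and all 10 were present among the 32793 rows of the deposited count and TPM tables. RNA had been sequenced from C2C12, a line of mouse myoblasts that divide while serum is plentiful and form multinucleated myotubes once it is reduced. The study asked how gene expression differs between control and Runx1KO cells, in growth medium and during differentiation. Control cells are called WT here. For both genotypes, day 0 is growth medium (20% fetal bovine serum), and days 1, 3 and 6 are days in differentiation medium (2% horse serum). Titles call the last harvest day 6 and the series text puts it at 5 days; day 6 is used here. WT day 0 had 2 libraries, and the other 7 groups had 3 each. The labels state neither how Runx1 was disrupted nor whether the KO cells were 1 clone.

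Cyclin-dependent kinases drive a cell from G1 into S phase by phosphorylating the pocket proteins. Unphosphorylated pocket proteins bind E2F transcription factors and hold S-phase genes silent. Ink4 proteins block Cdk4 and Cdk6 by keeping D-type cyclins away, whereas Cip/Kip proteins bind cyclin-kinase complexes, chiefly those of Cdk2. In skeletal muscle, permanent withdrawal from the cell cycle accompanies differentiation, and Cdkn1a (p21) and Rb1 are the textbook members of the group in that role.

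The 23 libraries held between 22197606 and 23684077 estimated counts each. Runx1 itself was higher, not lower, in the libraries labelled KO: 120 CPM (a count scaled to the TMM-adjusted library size) ± 2.15 (SD, n = 3) against 84.0 ± 0.0494 (n = 2) on day 0, and 311 ± 11.8 against 153 ± 10.4 (n = 3 each) on day 6. A count over the whole gene does not show whether a deleted stretch is missing, so KO below means the libraries labelled KO. Replicate 2 of KO day 1 stood apart from its replicates, with a chi-square per degree of freedom of 58.4 to 58.8 against 3.07 to 27.3 for other replicate pairs. Its deviation ran against the GC content of genes (r = -0.624 across 13265 genes, which are not independent replicates), and day 1 results are therefore given with and without it where a call changes. Markers of muscle were abundant: all 8 on the myoblast and myotube list were detected, and their summed TPM (transcript abundance scaled for length and depth) was 935 to 948 in WT day 0, 2885 to 3340 in WT day 6 and 12019 to 13687 in KO day 6. Of 27 markers of 6 other cell types, 4 (Adipoq, Cidec, Lep and Adgre1) were at 0 in every library. The exceptions to low levels were Sox9, on the chondrocyte list, with group means of 40.5 to 75.8 TPM, and Cd68, on the macrophage list, with up to 265 counts. Acan and Col2a1, which define cartilage, had at most 8 and 13 counts. Nothing in the labels says that replicates were separate cultures, so p-values measure the spread between these libraries, which may be technical. In bulk RNA, fewer cells of a type and less RNA per cell cannot be told apart.

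The stretches just upstream of Cdkn1a, Rbl1 and Rbl2 are shown because Cdkn1a had the largest positive difference between KO and WT on day 6 and because Rbl1 and Rbl2 moved in opposite directions during differentiation. Sequences are the 250 bases before the annotated start, from RefSeq on GRCm38.p6, read 5′ to 3′ along the gene. RefSeq windows were matched for 8 of the 10 members (11 windows), all but Rb1 and Cdkn1c, and 4 windows are shown. Capitals mark matches to the p53 half-site consensus or the E-box CANNTG in Cdkn1a and to the E2F motif (TTTCGCGC or TTTGGCGC) in Rbl1; both strands were searched.
Cdkn1a, upstream start, chr17:29090729-29090978, plus strand: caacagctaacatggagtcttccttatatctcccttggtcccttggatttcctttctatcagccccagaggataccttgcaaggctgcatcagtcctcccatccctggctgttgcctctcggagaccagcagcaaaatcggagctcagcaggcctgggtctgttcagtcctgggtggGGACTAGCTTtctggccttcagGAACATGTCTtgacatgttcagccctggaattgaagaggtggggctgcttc
Cdkn1a, downstream start, chr17:29093519-29093768, plus strand: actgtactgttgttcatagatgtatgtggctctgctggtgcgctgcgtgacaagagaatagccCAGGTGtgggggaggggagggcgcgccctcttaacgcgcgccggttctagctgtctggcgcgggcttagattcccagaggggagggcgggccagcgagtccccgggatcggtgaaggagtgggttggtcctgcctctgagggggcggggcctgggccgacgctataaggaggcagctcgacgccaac
Rbl1, chr2:157204535-157204784, minus strand: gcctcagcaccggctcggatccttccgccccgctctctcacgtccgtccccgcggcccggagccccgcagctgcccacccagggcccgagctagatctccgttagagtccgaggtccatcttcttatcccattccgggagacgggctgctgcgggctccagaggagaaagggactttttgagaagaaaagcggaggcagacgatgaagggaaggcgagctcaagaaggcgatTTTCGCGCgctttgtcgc
Rbl2, chr8:91069807-91070056, plus strand: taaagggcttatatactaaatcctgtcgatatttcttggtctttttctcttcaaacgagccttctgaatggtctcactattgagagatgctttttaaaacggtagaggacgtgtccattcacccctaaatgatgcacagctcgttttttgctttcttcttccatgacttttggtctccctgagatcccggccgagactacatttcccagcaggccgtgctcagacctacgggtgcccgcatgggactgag
The first Cdkn1a window held 2 p53 half-site matches, 73 and 51 bases before the start, and 7.13% of the 32851 promoter windows of this length held at least 1. Of the other member windows, that of Cdkn2d held 1 match, 102 bases before its start. The second Cdkn1a window had 1 E-box, CAGGTG, 187 bases before the start, a motif found in 66.2% of windows. Rbl1, which fell when the cells left growth medium, had 1 E2F match 18 bases before its start, and 0.654% of windows held one. It also held an E-box, CAGCTG, 183 bases before the start. No window of another member matched the E2F motif, including that of Rbl2, which matched no E-box either. Neither TGTGGT nor TGCGGT, the letters searched for Runx, occurred in any of the 11 member windows (18.6% of all windows held one). These matches describe letters in a short window and are not measurements of binding.

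By TPM, which allows levels of different genes to be compared, Cdkn1a was the highest of the 10 genes in all 8 groups. Its group means ran from 165 TPM in KO day 0 to 1051 TPM in KO day 6. Cdkn1b, Cdkn2c, Cdkn2d and Rbl2 formed a middle tier of 24.9 to 76.1 TPM over all libraries. By group mean, Rb1 and Rbl1 lay below them in all 8 groups, at 6.42 to 30.4 and 9.05 to 28.5 TPM over all libraries. Single libraries overlapped that tier, for example Rbl1 at 27.9 TPM and Cdkn1b at 25.8 TPM in KO day 0 replicate 3. Cdkn1c did not exceed 2.80 TPM in any library. Within the middle tier the order changed with the day: Cdkn1b came after Cdkn2d and Cdkn2c in WT day 0 but was second of all members in WT days 1, 3 and 6. Several neighbours in that order lay within the spread of each other, for example Cdkn2d at 52.6 ± 3.41 and Rbl2 at 52.8 ± 8.58 TPM in WT day 6 (SD, n = 3 each).

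**Figure D1:**
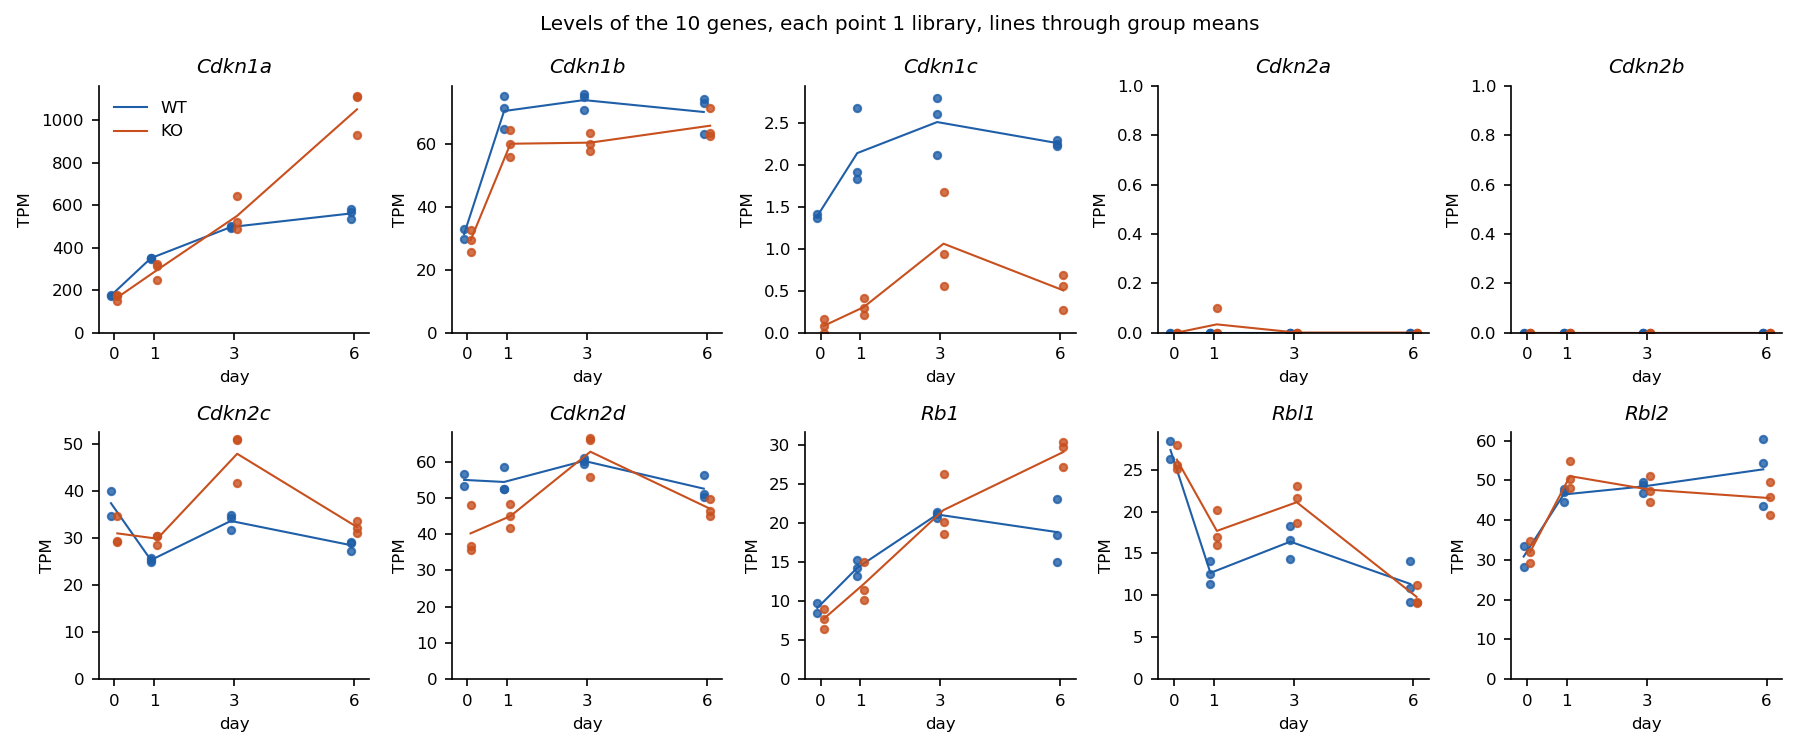
TPM (vertical axis, from 0) of each of the 10 genes by day in WT and KO, with 1 point per library and lines through the group means. Cdkn1a in KO climbs to between 930 and 1112 TPM on day 6, above the WT range of 535 to 580 TPM, while Cdkn2a and Cdkn2b stay at or near 0.

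Cdkn2a (chr4:89274471-89294653, minus strand), which encodes p16 and p19Arf, and its neighbour Cdkn2b (chr4:89306299-89311039, minus strand), which encodes p15, were practically undetected. Gene positions here and below are from GENCODE on GRCm38, the assembly also called mm10. A single count of Cdkn2a was recorded over 522624327 counts in all 23 libraries, in KO day 1 replicate 2, and no count of Cdkn2b. In any one library, 3 counts (the limit that a count of 0 allows, for counting error only) corresponded to 0.126 to 0.140 CPM. Both genes therefore failed the filter on low counts, and 8 of the 10 members were tested. Of those, Cdkn1c had at most 59 counts in a library. Its counts in KO days 0 and 1, at most 7, were under the filter's minimum of 10, and it passed on libraries of the other groups.

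After serum withdrawal, WT cells raised Cdkn1a, Cdkn1b, Rb1 and Rbl2 and lowered Rbl1 and Cdkn2c, and each of these 6 changes passed the test on days 1, 3 and 6. The test was edgeR's quasi-likelihood test at an adjusted p under 0.05. On day 1 in WT, 6 of the 8 tested members differed from day 0, 4 higher and 2 lower, against 54.7% of all genes tested (27.1% higher, 27.6% lower). On day 3 the counts were again 4 higher and 2 lower (58.2% of all genes; 29.2% higher, 29.0% lower). On day 6 Cdkn2d was added, with a log2 fold change (log2FC) of -0.25, for 4 higher and 3 lower (63.6% of all genes; 32.6% higher, 31.1% lower). That call of Cdkn2d was lost in 7 of 9 other fits and without any of 17 single libraries.

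In KO the same 4 genes were higher than on day 0 on each day, and Rbl1 was lower. With Cdkn1c also higher and Cdkn2c lower, 5 members rose and 2 fell by day 1 (52.3% of all genes; 27.2% higher, 25.2% lower). Of these, the fall of Cdkn2c was lost in 4 of 9 other fits and without KO day 0 replicate 3 or KO day 1 replicate 2, and the rise of Cdkn1c was lost in limma on log2(TPM + 1) (adjusted p = 0.147). By day 3 all 8 tested members had changed, 7 of them upward (57.6% of all genes; 30.4% higher, 27.2% lower), although limma on TPM did not call the fall of Rbl1 (log2FC -0.34 in edgeR). By day 6, 5 were higher and 1 lower (70.0% of all genes; 36.6% higher, 33.5% lower). Comparisons with day 0 within a genotype share the day 0 libraries. Among these WT calls, that of Rb1 on day 1 was lost without WT day 0 replicate 2 (log2FC 0.45, adjusted p = 0.0574, edgeR).

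Between genotypes, KO had less Cdkn1c on every day, more Cdkn2c on days 1, 3 and 6, more Rbl1 on days 1 and 3, and more Cdkn1a and Rb1 on day 6. In edgeR's test 2 of 8 members differed on day 0, both lower, while 17.5% of all genes did (7.36% higher, 10.1% lower). On day 1 it was 4, with 2 in each direction (42.2% of all genes; 22.9% higher, 19.2% lower). On day 3 there were 2 higher and 1 lower (43.2%; 24.0% higher, 19.2% lower), and on day 6 there were 3 higher and 1 lower (42.9%; 22.0% higher, 20.8% lower). From day 1 on, the members' share was thus near that of all genes. Rbl2 passed the test on no day, and Cdkn1b and Cdkn2d on 1 day each. The median log2FC of the 8 tested members was -0.11, -0.20, 0.20 and -0.002 on days 0, 1, 3 and 6, against -0.0011, 0.03, 0.04 and 0.0037 over all genes.

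**Figure D2:**
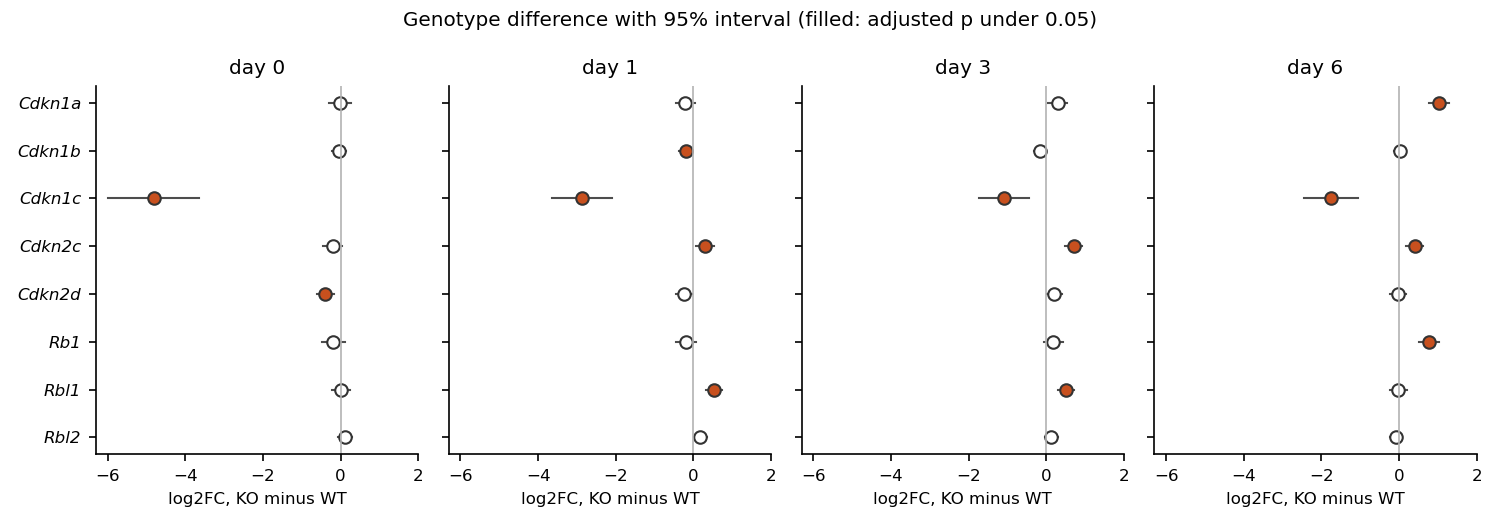
Log2FC of KO minus WT (horizontal axis) for the 8 tested members, in 1 panel per day, with bars for the 95% interval and filled points for an adjusted p under 0.05. Cdkn1c lies left of 0 in every panel, and Cdkn1a and Rb1 lie right of 0 on day 6, at 1.03 and 0.77.

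Cdkn1a (chr17:29090976-29100727, plus strand), which encodes p21, an inhibitor of Cdk2 complexes and a target of both Trp53 and MyoD, rose in both genotypes and rose further in KO. On day 0 its level was 194 and 200 CPM in the 2 WT libraries and 203, 204 and 176 CPM in KO. By day 6 the WT libraries stood at 587, 610 and 482 CPM and the KO libraries at 959, 1225 and 1251 CPM. The genotypes overlapped on day 0, whereas on day 6 every KO library was above every WT library. The day 6 difference was 2.05-fold (log2FC 1.03, SE 0.12, adjusted p = 2.65e-07, edgeR).

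On day 1, Cdkn1a in KO, at 347, 249.2 and 342 CPM, lay below WT, at 352, 362 and 366 CPM, a difference that did not pass (-0.20, adjusted p = 0.186, edgeR). The low value was that of replicate 2, and without it the difference was -0.085 (adjusted p = 0.578). In WT it rose from day 1 to day 3 (log2FC 0.47, adjusted p = 0.00755), but the step from day 3 to day 6 did not pass (0.17, adjusted p = 0.441). In KO both steps passed, with log2FC values of 0.96 and 0.91. Over the whole course the gene rose 2.84-fold in WT and 5.89-fold in KO, and the test of that difference, the genotype-by-time interaction, gave a log2FC of 1.05 (SE 0.18, adjusted p = 2.39e-04). On day 3 the KO libraries, at 707, 532 and 592 CPM, all lay above WT, at 494, 495 and 503 CPM, and the difference just missed the threshold (0.30, adjusted p = 0.0513, edgeR). It passed in 2 of the 9 other fits and when any of 4 single libraries was left out, for example 0.26 without KO day 1 replicate 2 (adjusted p = 0.0313). The day 6 calls, for the difference and for the interaction, held in all 9 and without each library in turn.

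Cdkn1b (chr6:134920401-134925513, plus strand), which encodes p27, the inhibitor associated with quiescence, about doubled within 1 day in either genotype and then stayed level. In WT it was 49.8 and 46.7 CPM on day 0 and 101, 108 and 95.1 CPM on day 1. The KO libraries went from 51.5, 48.1 and 40.7 CPM to 86.8, 89.3 and 88.9 CPM. No day 1 library of either genotype overlapped day 0. The rises amounted to log2FC values of 1.07 (SE 0.09) in WT and 0.92 (SE 0.08) in KO, with adjusted p-values of 6.94e-10 and 1.31e-09 (edgeR). None of the later steps passed in either genotype. On day 1 KO was lower by a log2FC of -0.20 (adjusted p = 0.0390), a call that 4 of the 9 other fits and the omission of any of 4 libraries removed. The same direction on day 3, -0.15, did not pass (adjusted p = 0.116) but did so in 6 of the 9 other fits.

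Within the Cip/Kip family, Cdkn1a supplied most of the transcripts. Its share of the summed TPM of the 3 genes was 84.2% ± 0.654 in WT day 0 (n = 2) and 88.5% ± 1.07 in WT day 6 (SD, n = 3). In KO the share went from 84.9% ± 0.601 to 94.0% ± 1.04 (n = 3 each). The ratio of Cdkn1a to Cdkn1b TPM was similar on day 0, at 5.56 in WT and 5.64 in KO, and on day 6 it was 8.01 ± 0.878 against 16.1 ± 2.65. The lowest KO ratio on day 6, 13.0, was above the highest WT ratio, 8.94. These shares are descriptions and were not tested.

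Cdkn1c (chr7:143458339-143461050, minus strand), which encodes p57, a maternally expressed imprinted inhibitor, was the member with the widest relative difference between genotypes and by far the lowest level of those tested. On day 0 the WT libraries held 34 and 30 counts and the KO libraries 1, 0 and 2. On day 1 there were 45, 44 and 56 counts in WT and 5, 7 and 7 in KO. The KO libraries lay below WT on all 4 days, although on day 3 their 33, 21 and 14 counts came nearest to the 42, 59 and 49 of WT. Ratios of summed, depth-corrected counts, WT over KO, were 31.3 on day 0 (95% interval for counting error 10.2 to 156), 7.40 on day 1 (4.57 to 12.6), 2.13 on day 3 (1.59 to 2.88) and 3.39 on day 6 (2.34 to 5.04). Log2FC values in edgeR were -4.81, -2.86, -1.09 and -1.75, each with an adjusted p under the threshold, the highest being 0.00677 on day 3.

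The change of Cdkn1c since day 0 differed between genotypes. Its log2FC against day 0 passed in KO on days 1, 3 and 6 (2.46, 4.31 and 3.40) and in WT on none of them (0.51, 0.59 and 0.34), although limma on log2(TPM + 1) called the WT rises of days 3 and 6. The interaction passed on days 3 and 6, at 3.72 (adjusted p = 8.31e-04) and 3.06 (adjusted p = 0.00605). Because KO day 0 rests on 3 counts in all, the size of these fitted changes depends on the prior count and is no bound. The day 3 difference between genotypes lost its call without KO day 3 replicate 3 (log2FC -0.83, adjusted p = 0.0506), limma on log2(TPM + 1) removed both interaction calls, and limma on log2(TPM + 0.1) removed that of day 6.

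Among the Ink4 genes only Cdkn2c and Cdkn2d were expressed. Cdkn2d supplied the larger part of their summed TPM in every group, from 56.2% in KO day 0 to 68.2% in WT day 1. In counts, which are not scaled for length, Cdkn2c was the larger in WT day 0 and in all 4 KO groups, at up to 56.5%. Of the summed TPM, Cdkn2c accounted for 31.8% to 40.5% in WT group means and for 39.9% to 43.8% in KO. On days 1, 3 and 6 every KO library had a higher Cdkn2c share than every WT library of the same day.

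Cdkn2c (chr4:109660876-109667189, minus strand), which encodes p18, an inhibitor of Cdk4 and Cdk6, was lower than on day 0 at each later harvest in WT and higher on day 3 in KO. On day 0 it stood at 46.1 and 41.9 CPM in WT and at 35.3, 36.1 and 43.1 CPM in KO, ranges that overlapped. On day 3 the WT libraries held 35.6, 33.6 and 31.0 CPM, and the KO libraries 47.0, 56.5 and 59.7 CPM. Every KO library was then above every WT library, and this was the widest gap of any day (log2FC 0.70, SE 0.11, adjusted p = 9.11e-06, edgeR). Against day 0 the gene was lower in WT on day 3 (-0.40, adjusted p = 0.00564) and higher in KO (0.51, adjusted p = 2.26e-04). The interaction was 0.91 on day 3 (SE 0.16, adjusted p = 3.43e-04), and that of day 6 was 0.61 (adjusted p = 0.0110). Leaving out WT day 0 replicate 1 ended the call of the day 6 interaction (0.49, adjusted p = 0.102) and ended the day 3 call in WT (-0.29, adjusted p = 0.106), which limma on TPM did not make either.

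The genotype difference of Cdkn2c was smaller on the other 2 days of differentiation. On day 1 it was 0.30 (adjusted p = 0.0303), with KO libraries at 35.5, 25.9 and 33.0 CPM overlapping WT at 25.5, 24.6 and 26.8 CPM. The low KO value was that of replicate 2, and without it the difference was 0.40 (adjusted p = 0.00245). The difference lost its call in 3 of the 9 other fits, and when KO replicate 1 or 3 or WT replicate 1 or 2 of day 1 was left out. Without the same KO replicate 2, the fall of Cdkn2c from day 0 to day 1 in KO (-0.28) no longer passed (-0.15, adjusted p = 0.204; -0.18 without KO day 0 replicate 3), and the day 1 interaction did (0.58, adjusted p = 0.0166). On day 6, KO at 32.2, 34.9 and 34.2 CPM exceeded WT at 26.7, 25.6 and 24.2 CPM (log2FC 0.41, adjusted p = 0.00388). Limma on TPM did not call the day 6 difference.

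Cdkn2d (chr9:21288410-21291407, minus strand), which encodes p19Ink4d, another inhibitor of Cdk4 and Cdk6, moved little in WT and rose briefly in KO. Its WT levels were 38.8 and 38.5 CPM on day 0 and stayed between 31.6 and 38.4 CPM on later days. The KO libraries held 34.7, 27.5 and 26.2 CPM on day 0, all below WT, and 38.4, 45.1 and 47.1 CPM on day 3. The day 0 difference was -0.39 (SE 0.11, adjusted p = 0.0132, edgeR). This call was lost without WT replicate 1 or 2 or KO replicate 2 or 3 of day 0 (adjusted p 0.0627 to 0.106). On day 1 the KO libraries, at 31.1, 26.0 and 31.7 CPM, again all lay below WT, at 32.8, 37.3 and 34.4 CPM, and the difference just missed the threshold (-0.24, adjusted p = 0.0567, edgeR). It passed in 6 of the 9 other fits and without any of 9 single libraries, whereas without KO day 1 replicate 2 it was -0.17 (adjusted p = 0.166). In KO the gene rose by day 3 (log2FC 0.56, adjusted p = 3.14e-05) and fell again by day 6 (-0.45 from day 3, adjusted p = 6.02e-04). On day 3 the interaction was 0.60 (SE 0.15, adjusted p = 0.00760). It missed the threshold without WT day 0 replicate 1 (0.54, adjusted p = 0.0529).

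**Figure D3:**
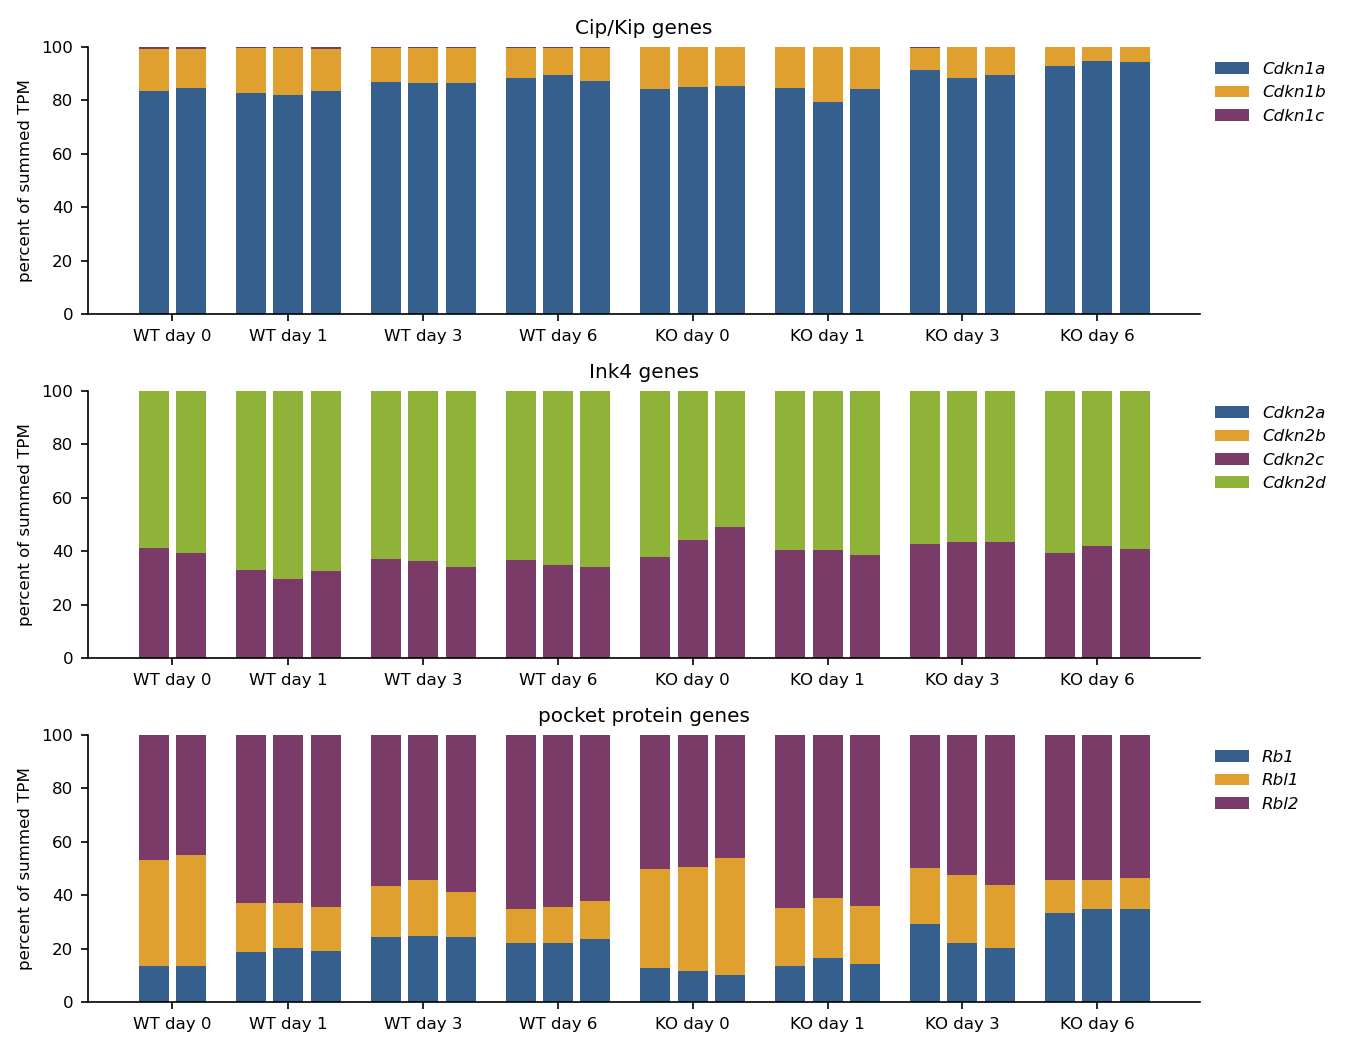
Share of each gene in the summed TPM of its family, in percent (vertical axis), with 1 bar per library grouped by genotype and day. Cdkn1a dominates the Cip/Kip panel, Cdkn2a and Cdkn2b make up at most 0.142% and 0% of the Ink4 sum in a library, and in the pocket protein panel the Rbl1 band narrows from about 40.7% to 13.7% in WT and from 39.9% to 11.6% in KO.

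Of the 3 pocket protein genes, Rbl2, which encodes p130 and is typical of quiescent cells, had the highest TPM in all 8 groups. Rbl1, which encodes p107 and is typical of cycling cells, was second on day 0 in both genotypes, and Rb1 had the second highest mean on days 3 and 6. On day 3 in KO that order held in replicate 1 alone, and Rbl1 was above Rb1 in the other 2 libraries. In WT the group mean share of Rbl1 in their summed TPM went from 40.7% on day 0 to 13.7% on day 6, while that of Rb1 went from 13.5% to 22.6%. In KO, Rbl1 went from 39.9% to 11.6% and Rb1 from 11.7% to 34.5%. The share of Rbl1 did not fall at every step, since it was 17.3% and 19.1% on days 1 and 3 in WT and 21.8% and 23.4% in KO. Rbl2 held 45.7%, 63.3%, 56.4% and 63.7% on days 0, 1, 3 and 6 in WT and 48.5%, 63.2%, 52.7% and 53.9% in KO. The ratio of Rbl2 to Rbl1 TPM rose from 1.12 ± 0.0734 to 4.68 ± 0.368 in WT and from 1.22 ± 0.159 to 4.65 ± 0.305 in KO, and the genotypes' ranges overlapped on both days. On days 1 and 3 it was 3.68 and 2.99 in WT against 2.90 and 2.27 in KO.

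Rb1 (chr14:73183673-73325822, minus strand), which encodes the retinoblastoma protein, rose in both genotypes and reached a higher level in KO. Its day 0 levels were 27.6 and 25.4 CPM in WT and 27, 23.6 and 19.5 CPM in KO. On day 6 WT libraries held 48.4, 41.6 and 53.8 CPM and KO libraries 80.9, 85.0 and 79.0 CPM. The day 0 ranges overlapped, and the day 6 ranges were far apart. On day 6 the difference was 1.70-fold (log2FC 0.77, SE 0.12, adjusted p = 1.91e-05, edgeR), a call kept in all 9 other fits and without each library. Relative to day 0, Rb1 was 1.81-fold higher in WT and 3.49-fold higher in KO, and the interaction was 0.95 (SE 0.19, adjusted p = 0.00114). From day 3 to day 6 it changed by -0.19 in WT (adjusted p = 0.402) and rose by 0.39 in KO (adjusted p = 0.0114), a step whose call was lost without KO day 3 replicate 2 or 3 (0.34 and 0.31).

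On days 0 and 3 the genotypes did not differ in Rb1 beyond the test's threshold, with intervals for the log2FC of -0.48 to 0.12 and -0.07 to 0.44. On day 1 KO replicate 2 held 39.1 CPM against 28.8 and 31.3 CPM in the other KO libraries and 37.2, 40.4 and 36.0 CPM in WT. Without it, KO was lower on day 1 (log2FC -0.35, adjusted p = 0.0295), and with it the difference was -0.19 (adjusted p = 0.226). The exons of Rb1 overlap those of Rcbtb2 and Lpar6 on the opposite strand in the GENCODE annotation, and the use of strand in the counting is not given in the sources used here. Those genes had at most 599 and 232 counts, against 421 to 1975 for Rb1. Cdkn1c and Cdkn1a likewise overlap exons of the opposite-strand genes Gm44732 and AC167363.2, which have no row under those names in the deposited tables.

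Rbl1 (chr2:157145893-157204534, minus strand) fell in both genotypes and stood higher in KO on days 1 and 3. It started at 73.0 and 72.9 CPM in WT and at 72.2, 71.6 and 77.2 CPM in KO. On day 1 it was 34.0, 30.5 and 29.9 CPM in WT and 44.0, 49.8 and 42.6 CPM in KO. On day 3 the WT libraries held 41.0, 46.0 and 36.4 CPM and the KO libraries 51.0, 64.1 and 59.8 CPM. Each KO library was above each WT library on both of these days, and by day 6 the ranges, 23.3 to 28.9 CPM in WT and 24.1 to 28.1 CPM in KO, overlapped.

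By edgeR, Rbl1 was higher in KO by a log2FC of 0.53 on day 1 (SE 0.10, adjusted p = 1.89e-04) and of 0.50 on day 3 (adjusted p = 2.43e-04). The day 6 value was -0.02, with a 95% interval of -0.24 to 0.19. In both genotypes the gene rose somewhat between days 1 and 3, by 0.39 in WT and 0.36 in KO, before its second fall; limma on TPM called neither step, and the calls were also lost without WT day 3 replicate 2 (0.29) and KO day 3 replicate 2 (0.28). From day 0 to day 6 it fell 2.80-fold in WT and 2.87-fold in KO. The interaction reached the threshold on day 1 (0.52, adjusted p = 0.0494) and day 3 (0.49, adjusted p = 0.0322). Of these calls, the first was lost in 7 and the second in 5 of the 9 other fits, and they were lost without any of 19 and of 13 single libraries, with log2FC values down to 0.40 and 0.41. The lowest day 1 value, 0.40 (adjusted p = 0.133), was that without KO day 1 replicate 2.

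Rbl2 (chr8:91070057-91123844, plus strand) rose early and stayed up. WT went from 102 and 89.9 CPM on day 0 to 133, 133 and 129 CPM on day 1, and KO from 111, 105 and 94.8 CPM to 146, 153 and 148 CPM. All later libraries of both genotypes were above the highest day 0 library. Against day 0 the log2FC on day 6 was 0.59 (SE 0.09) in WT and 0.40 (SE 0.08) in KO, and no step after day 1 passed in either genotype. The genotype difference passed on no day. It was widest on day 1, at 0.18 (95% interval 0.01 to 0.34, adjusted p = 0.0807), when every KO library was above every WT library. Exons of Rbl2 overlap those of Aktip on the opposite strand, a gene with at most 2016 counts in a library.

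**Figure D4:**
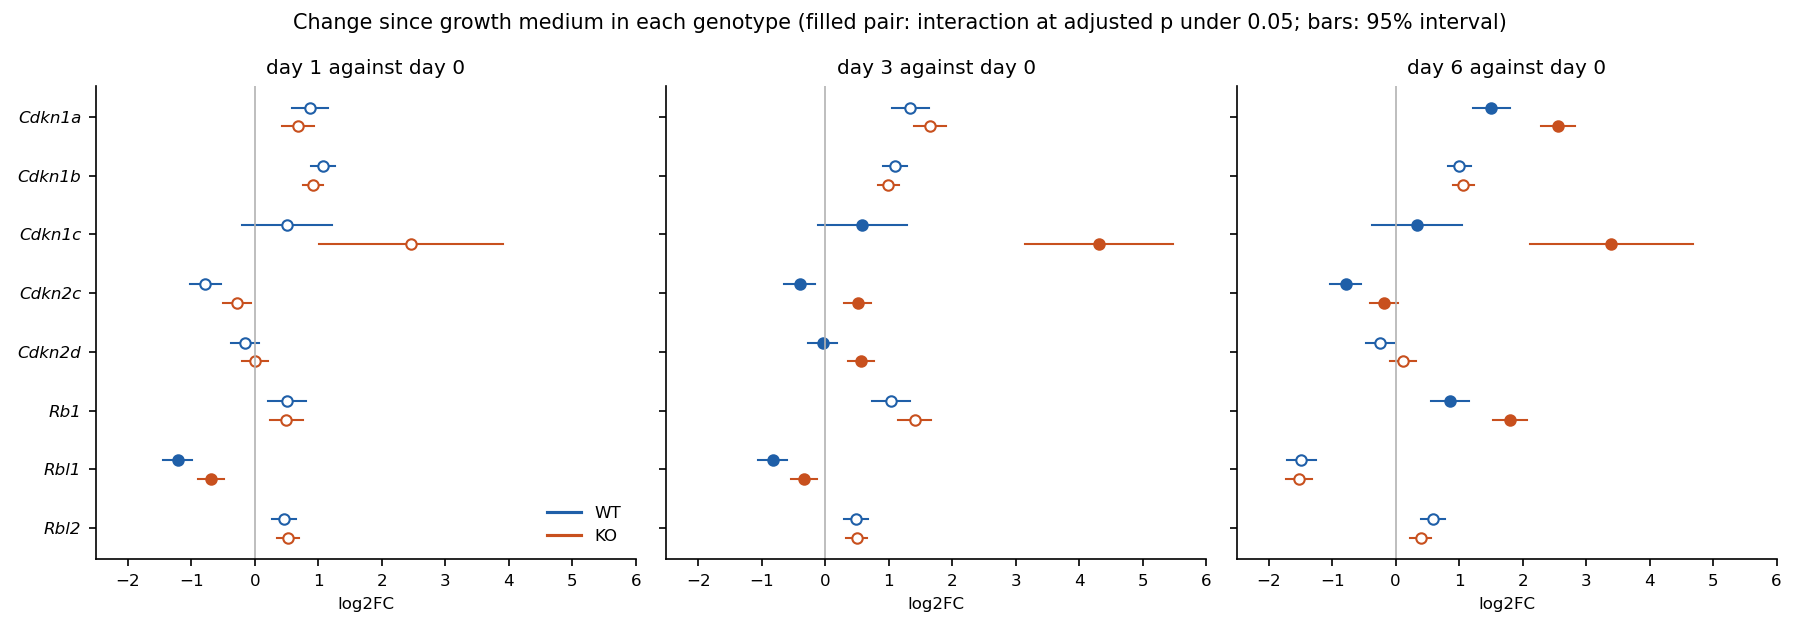
Log2FC against day 0 (horizontal axis) for the 8 tested members on days 1, 3 and 6, in WT and in KO, with bars for the 95% interval; a filled pair marks an interaction at an adjusted p under 0.05. On day 6 the pairs of Cdkn1a (1.51 and 2.56) and Rb1 (0.85 and 1.80) lie apart, whereas those of Cdkn1b and Rbl1 lie close together.

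The test of whether the change since day 0 differed between genotypes passed for 1 of 8 members on day 1 (3.95% of all genes; 2.64% higher in KO, 1.31% lower). It passed for 4 on day 3 (10.7%; 6.65% higher, 4.06% lower) and for 4 on day 6 (13.0%; 7.54% higher, 5.42% lower). All 9 calls were positive, that is, the change was more positive in KO. They are not independent: they share the day 0 libraries, and Cdkn1c, Cdkn2c and Rbl1 were each called on more than 1 day. Cdkn1c rests on 3 counts over the KO day 0 libraries. Cdkn2d was lower in KO on day 0 (log2FC -0.39), and its day 3 genotype difference did not pass (0.21, adjusted p = 0.0825, edgeR). The interaction medians of the 8 members were 0.11, 0.43 and 0.49, against 0.04, 0.05 and 0.02 over all genes. The positive calls on day 3 were Cdkn1c, Cdkn2c, Cdkn2d and Rbl1, and on day 6 Cdkn1a, Cdkn1c, Cdkn2c and Rb1. The muscle marker sums did not overlap between genotypes on day 0 (1256 to 1295 TPM in KO, 935 to 948 in WT), day 3 (4816 to 7763 in KO, 3350 to 3464 in WT) or day 6. On day 6 they were at least 12019 TPM in KO and at most 3340 TPM in WT, with Acta1 alone at a mean of 8546 TPM in KO and 1409 TPM in WT. Of the 8 markers, Myod1 was at 214 and 191 TPM and Myf5 at 22.4 and 31.2 TPM in KO and WT. On the same day Cd68, a marker also of macrophages, had a mean of 16.3 TPM in KO against 5.58 in WT while Adgre1 was at 0 and Ptprc had at most 1 count. Their part in the results was not tested.

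From one harvest to the next, 4 of 8 members rose between days 1 and 3 in WT (19.7% of all genes changed; 11.0% upward, 8.68% downward). In KO 6 rose (26.7%; 15.5% upward, 11.2% downward). Between days 3 and 6, 2 fell in WT (9.79%; 4.87% upward, 4.92% downward), and 6 changed in KO (41.3%; 20.2% upward, 21.2% downward). In KO the last step took Cdkn1a and Rb1 up and Cdkn1c, Cdkn2c, Cdkn2d and Rbl1 down, the call of Cdkn1c being lost in 6 of 8 other fits and without any of 12 single libraries (-0.54 without KO day 3 replicate 1). In WT it took Cdkn2c and Rbl1 down, with log2FC values of -0.39 and -0.66, and the fall of Cdkn2c was not called by limma on TPM or without WT replicate 1 or 2 of day 3 or 2 or 3 of day 6. The WT rise of Cdkn2c from day 1 to day 3 (0.38) lost its call without WT day 1 replicate 2 (0.35) or WT day 3 replicate 1 (0.33).

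Of 15 S-phase genes known to respond to E2F, none differed between genotypes on day 0 (7.36% of all genes were higher and 10.1% lower), 14 were higher in KO on day 1 (22.9% of all genes were) and 15 on day 3 (24.0%). Without KO day 1 replicate 2, all 15 were higher on day 1. On day 6 none was higher and 1, Rrm2, was lower (22.0% and 20.8% of all genes). The list's median log2FC was 0.03, 0.83, 0.72 and -0.10 on the 4 days. The highest values were 1.11 for Cdc6, a licensing factor, on day 1 and 0.97 for Mcm5, a helicase subunit, on day 3. All 15 were lower on day 6 than on day 0 in WT and in KO, with medians of -2.03 and -2.20, as were 31.1% and 33.5% of all genes.

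Of 10 cyclins and kinases on which the inhibitors act, 4 were higher and 1 lower in KO on day 0, 8 and 1 on day 1, 8 and 2 on day 3, and 5 and 2 on day 6. Over all genes the shares higher and lower were 7.36% and 10.1% on day 0, 22.9% and 19.2% on day 1, 24.0% and 19.2% on day 3, and 22.0% and 20.8% on day 6, and the same shares stand beside the counts of the lists that follow. Cdk6, an Ink4 target, stood out on day 0 with a log2FC of 0.72, Ccne2, a cyclin of Cdk2, on day 1 with 1.29, and Cdk1, the mitotic kinase, on days 3 and 6 with 1.24 and 0.53. In the other direction the most negative were Ccna2, an S-phase cyclin, on day 0, at -0.28, and the D-type cyclins Ccnd2 on days 1 and 3, at -0.42 and -0.93, and Ccnd1 on day 6, at -0.61. The list's medians were 0.19, 0.37, 0.60 and 0.14.

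Of 7 E2F and Dp genes, 3, 4, 4 and 2 were higher in KO on days 0, 1, 3 and 6, led each time by E2f2 (0.62, 1.14, 1.20 and 1.22). None was lower on day 0, E2f5 was lower on days 1 and 3 (-0.35 and -0.40), and E2f1 and E2f5 were lower on day 6 (-0.79 and -0.55), and the medians were 0.06, 0.30, 0.24 and 0.14. The MuvB core binds Rbl1 or Rbl2 in the DREAM complex of resting cells and Mybl2 once the pocket protein has left. Of these 6 genes, 0, 4, 5 and 2 were higher in KO and none lower, with medians of 0.17, 0.49, 0.57 and 0.26 and with Lin9 highest on day 1, at 0.99. Among 5 tested genes of p27 turnover, 1, 3, 2 and 0 were higher and none lower, with medians of 0.07, 0.47, 0.19 and 0.07; Skp2, which marks p27 for destruction, had a log2FC of 0.36 on day 0, 0.74 on day 1 and 0.97 on day 3.

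Of 11 other Trp53 targets tested, 4 were higher and 0 lower in KO on day 0, 2 and 4 on day 1, 1 and 6 on day 3, and 2 and 4 on day 6. On day 6 their log2FC ran from -0.80 for Zmat3 to 1.36 for Gadd45a, with a median of -0.08, after medians of 0.13, -0.0015 and -0.38 on days 0, 1 and 3. The day 6 interaction was positive for 1 of them, Gadd45a (0.63, adjusted p = 0.0494, edgeR), and negative for 3, with a median of -0.11 (7.54% of all genes were positive and 5.42% negative). Of the 14 regulators of inhibitor genes, 2, 4, 6 and 4 were higher and 3, 3, 4 and 2 lower on days 0, 1, 3 and 6, with medians of 0.12, 0.09, 0.18 and 0.14. Myog, the myogenic factor that marks commitment to fusion, was at 2.61 on day 6. Foxo1, which activates Cdkn1b, was lower in KO on days 0, 1 and 3 with log2FC values from -1.09 to -0.75.

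**Figure D5:**
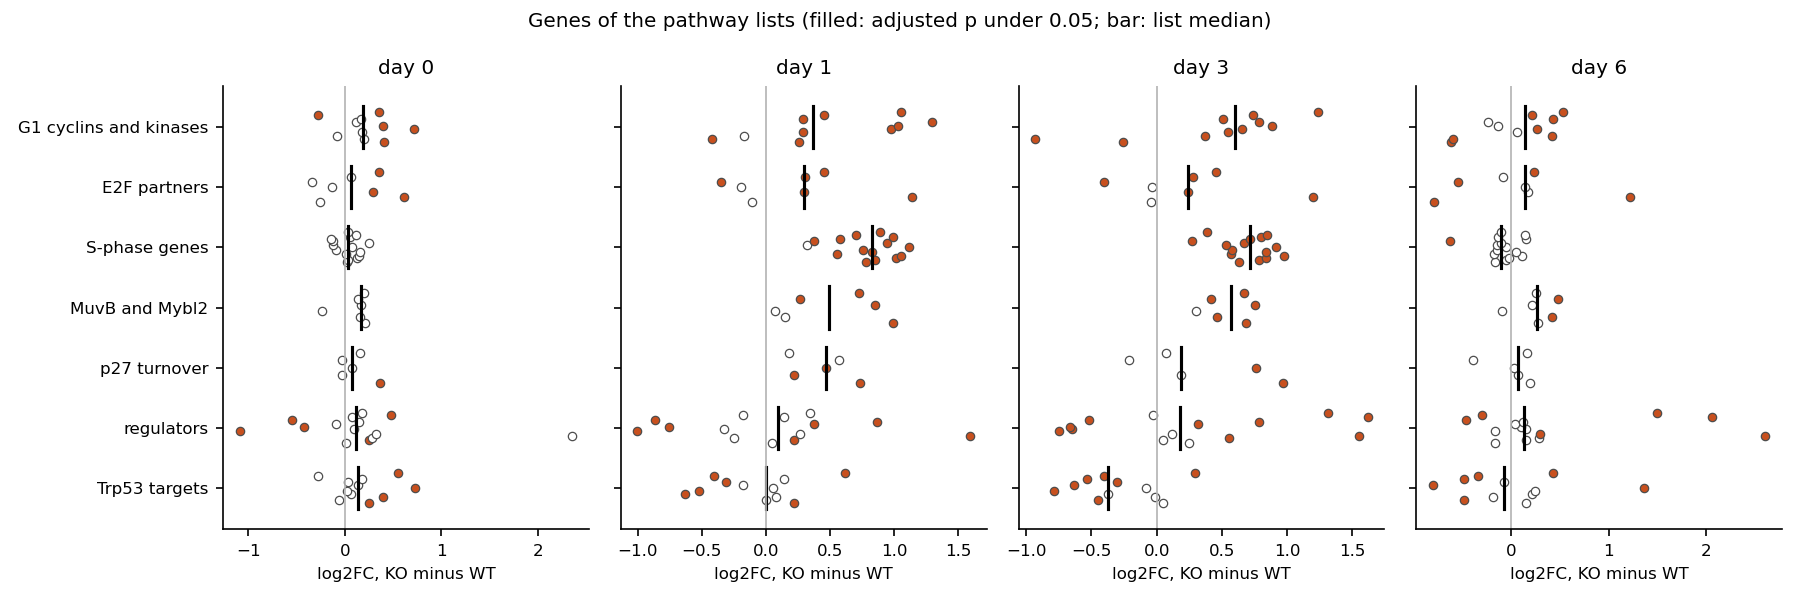
Log2FC of KO minus WT (horizontal axis; each panel has its own scale) for the genes of 7 pathway lists (rows), in 1 panel per day, with filled points for an adjusted p under 0.05 and a bar at each list's median. The S-phase genes sit near 0 on days 0 and 6 and to the right of it on days 1 and 3, with medians of 0.83 and 0.72.

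For each member, the genes with the most similar pattern were found by Pearson's r over the 8 group means of log2 CPM, as a description. Rbl1 was most like Ska3, Srrt and Pclaf (r = 0.993 for the first), whose group means also fell from day 0 to day 6, Pclaf from 119 to 19.4 CPM in WT. Cdkn1a and Rb1 shared Dtx3l among their top 3 (r = 0.993 and 0.989), a gene at 6.04 and 4.36 CPM in WT and KO on day 0 and at 22.4 and 59.2 CPM on day 6. Cacng1 and Usp20 completed the list for Cdkn1a, and Sntb1 and Amacr that for Rb1. Cdkn1b was closest to Svil, Vwa5a and Calcoco1, and Rbl2 to Asah1, Bcl2l11 and Tgfbr2. Cdkn1c resembled Bdkrb1, Igfbp4 and Slc16a3, each lower in KO in all 4 group means. For Cdkn2c and Cdkn2d the closest were Mepce (r = 0.971) and Coq6 (r = 0.914), the weakest likeness of any member.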

How the data were processed

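Poly(A) RNA of 23 libraries was analysed from tables that the authors deposited. Bowtie2, RSEM and the build mm10 are named in the submitters' processing notes, without roles or versions; annotation and strand are not given in the sources used here. The first table holds estimated counts per gene symbol, deposited by the authors as whole numbers. The second holds TPM, deposited by the authors and normalised for length and depth. Entries with a count of 0 and a TPM above 0 numbered 790, and 108 had the reverse.

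Counts were tested with the quasi-likelihood test of edgeR 4.0.16 in R 4.3.3 (TMM scaling, filterByExpr with a minimum count of 10 and a minimum total of 15, 14187 genes). A group-means model covered all 23 libraries. Within each of 17 contrasts, Benjamini-Hochberg adjustment ran over all genes tested, with a threshold of 0.05. Levels of one gene are TMM-scaled CPM, and levels of different genes are compared in TPM. A prior count of 2 entered log2 CPM. The SE of a log2FC was derived from its size and the F statistic of its test, and 95% intervals were built from that SE.

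All 10 members are named. The members, the 7 pathway lists and the rules for named genes were chosen with earlier results of these data known; of a list, counts and the median are given, and called genes with the most extreme log2FC may be named, and E2f5 was added after its values were seen. The genes most like a member had a mean of at least 10 CPM and no model name. The 9 other fits were limma 3.58.1 on log2(TPM + 1) or log2(TPM + 0.1), DESeq2 1.42.0, RLE or plain library-size scaling, genes unfiltered or with mean counts of at least 50, the compared groups alone, and the replicate block; stricter thresholds and omission of each library were also tried. Floors and intervals for counts cover counting error only. The fit was tested on simulated counts.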

Additional observations from a re-analysis of the deposited data

Results flagged for a closer look

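Each result here is a change since day 0 that differed between KO and WT by edgeR's interaction test (adjusted p under 0.05); all rest on the WT day 0 group of 2 libraries. On day 1 this was Rbl1, with a log2FC of 0.52 (adjusted p = 0.0494), which was 0.40 (adjusted p = 0.133) without KO day 1 replicate 2. On day 3 the values were 3.72 for Cdkn1c (adjusted p = 8.31e-04), 0.91 for Cdkn2c (adjusted p = 3.43e-04), 0.60 for Cdkn2d (adjusted p = 0.00760) and 0.49 for Rbl1 (adjusted p = 0.0322). On day 6 they were 1.05 for Cdkn1a (adjusted p = 2.39e-04), 3.06 for Cdkn1c (adjusted p = 0.00605), 0.61 for Cdkn2c (adjusted p = 0.0110) and 0.95 for Rb1 (adjusted p = 0.00114). Dixon's criterion for a single library that stands apart was applied to groups of 4 to 10 libraries alone, and no group here was that large.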

How the results depend on the processing

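Over 136 member results, 1315 of 1477 values from the other settings kept their direction and their side of the threshold, 118 lost and 20 gained a call, and 24 changed sign. With single libraries left out the numbers were 2950 of 3128, with 90, 23 and 65. The number of members called in KO against WT was 1 on day 0 with a mean count of at least 50, with an adjusted p under 0.01 or with an absolute log2FC of at least 1. Cdkn1c, with 613 counts over the 23 libraries, was below a mean of 50, so counts under that setting leave it out as untested. On day 1 the number called was 2 with only the groups compared or an adjusted p under 0.01, and on day 3 it was 5 with only the groups compared. With an absolute log2FC of at least 1 it was 1, 1 and 2 on days 1, 3 and 6. That fold requirement left 2, 3 and 3 members on days 1, 3 and 6 in WT against day 0, 1 and 3 on days 1 and 3 in KO, 0 in each later step in WT, 1 in each later step in KO, and 0, 1 and 2 interactions. Limma on either TPM scale, or an adjusted p under 0.01, left 1 member from day 3 to day 6 in WT. The day 1 interaction count was 0 with RLE, library size only, a mean count of at least 50, only the groups compared, an adjusted p under 0.01 and the replicate block. That of day 3 was 2 with a mean count of at least 50 and with limma on log2(TPM + 1). Over all genes, the day 1 interaction calls went from 560 to 441 with the replicate block. Calls over all genes under the other settings are not given here, so a shift of the members cannot be told from one of all genes.

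Sign changes were all in values that did not pass the test. In KO against WT, Rbl1 on day 0 was -0.046 with library size only and -0.060 and -0.062 in the limma fits, Rbl2 on day 3 was -0.026 and -0.027 in the limma fits, and Cdkn1b on day 6 was -0.053 with library size only and -0.090 and -0.091 in the limma fits. Against day 0, Cdkn2d in WT on day 3 was 0.022 with library size only and 0.13 in both limma fits, Cdkn2d in KO on day 1 was -0.026 without the filter, and Cdkn2c in KO on day 6 was 0.063 and 0.065 in the limma fits. Among interactions, Cdkn1c on day 1 was -0.11 in limma on log2(TPM + 1), and Rb1 on day 1 was 0.0074 with library size only and 0.0046 in limma on log2(TPM + 0.1). Rbl2 on day 3 was -0.035 with RLE and with DESeq2, -0.0085 without the filter, -0.031 with a mean count of at least 50, -0.026 with only the groups compared, and -0.078 and -0.080 in the limma fits. The median of all genes moved with the scale, for instance from 0.04 with TMM to -0.08 in log2(TPM + 1) for KO against WT on day 3.

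Without single libraries, the members called ranged from 1 to 2, 2 to 5 and 2 to 5 in KO against WT on days 0, 1 and 3, from 0 to 1 and 2 to 4 in the interactions of days 1 and 3, and from 1 to 2 for WT from day 3 to day 6. Among all genes, those called in KO against WT ranged from 1265 to 3459, 4840 to 6058 and 5151 to 7102. With all libraries they were 2479, 5981 and 6127. For the interactions the ranges were 148 to 919 and 829 to 2302, against 560 and 1519 with all libraries. For the WT step the range was 762 to 2271, against 1389. Log2FC ranges that crossed 0 in KO against WT were, on day 0, -0.054 to 0.047 for Cdkn1a, -0.091 to 0.045 for Cdkn1b and -0.021 to 0.057 for Rbl1. On day 6 they were -0.040 to 0.039 for Cdkn1b, -0.083 to 0.0054 for Cdkn2d and -0.12 to 0.029 for Rbl1. Over time they were -0.014 to 0.072 for Cdkn1b, -0.062 to 0.20 for Cdkn1c and -0.0020 to 0.050 for Rbl2 from day 1 to day 3 in WT, -0.098 to 0.027 for Rbl2 in that step in KO, -0.055 to 0.013 for Cdkn2d on day 3 in WT and -0.071 to 0.15 for Cdkn2d on day 1 in KO. For interactions they were -0.20 to 0.078 for Rb1 and -0.053 to 0.15 for Rbl2 on day 1, -0.13 to 0.10 for Rbl2 on day 3, and -0.031 to 0.11 for Cdkn1b and -0.16 to 0.0090 for Rbl1 on day 6. The cause of these changes was not tested.

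Deviations from the group mean of same-numbered KO and WT libraries of the same day correlated at -0.24 to 0.0535. Groups held only 2 or 3 libraries, and libraries of different days were not compared. This check therefore cannot show whether equal replicate numbers mark paired cultures. With the replicate block, 136 of 140 log2FC results of the members and Runx1, called or not, kept their direction and their side of the threshold. The block lost the calls of Cdkn2d in WT on day 6 (adjusted p = 0.0615, edgeR) and Cdkn1c in KO from day 3 to day 6 (0.0593). It also lost the interactions of Rbl1 on day 1 (0.50, adjusted p = 0.0794) and day 3 (0.48, adjusted p = 0.0517). Among the tested members, depth limits Cdkn1c above all, with 3 counts over the KO day 0 libraries.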

Other observations

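The neighbours of the members on the chromosome were looked up after the members' values had been seen (GENCODE annotation, GRCm38). Cdkn2a and Cdkn2b lie 11646 bases apart on chromosome 4. Mtap, 93390 bases to the other side of Cdkn2a, had 49.9 to 151 TPM over the 23 libraries, whereas Dmrta1, 368397 bases beyond Cdkn2b, was at 0 in all of them. Around Cdkn1c on chromosome 7, Kcnq1, Slc22a18, Phlda2 and Trpm5 were all below 1 TPM: the highest value of any of them was 0.76 TPM, for Slc22a18. Rab44, 13418 bases from Cdkn1a, had group means of 0.065 TPM in WT and 0.0267 TPM in KO on day 0 and of 0.687 and 3.31 TPM on day 6, at no more than 229 counts. On the other side of Cdkn1a, Srsf3, 47603 bases away, had group means of 144 and 149 TPM in WT and KO on day 0 and of 57.4 and 56.8 TPM on day 6, and Stk38, 82981 bases away, had 23.4 to 34.1 TPM over the libraries. Itm2b, next to Rb1, was at 175 and 139 TPM on day 0 and at 629 and 642 TPM on day 6.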
